A study of Homo sapiens with 9 samples.

Results

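The enzymes described here make serine from a glycolytic intermediate and move its carbon units through the folate pools of mitochondria and cytosol. The rule took every probe set (a set of probes that reads 1 transcript cluster) annotated with PHGDH, PSAT1, PSPH, SHMT1, SHMT2, MTHFD1, MTHFD2, MTHFD1L or ALDH1L2. Of these 9 genes, 6 had a probe set annotated with the gene alone, among 14432 such probe sets and 22011 in all. PSPH was annotated in 1 probe set that also names NUPR2, so its values are those of both genes together. No probe set was annotated with MTHFD1L or ALDH1L2, and these 2 mitochondrial enzymes were not analysed here. The 7 enzymes with values fall into 3 groups by role: serine synthesis (PHGDH, PSAT1 and PSPH), mitochondrial folate (SHMT2 and MTHFD2) and cytosolic folate (SHMT1 and MTHFD1).

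HEK293 is an established human embryonic kidney cell line, and all cells were grown in the same serum-containing medium and transfected for 48 h with stealth siRNAs. The groups were siZNF326, directed at ZNF326 (also called ZIRD), siDBC1, directed at DBC1 (gene symbol CCAR2), and siCTR, a control siRNA, with 3 arrays from independent experiments in each. DBC1 and ZNF326 form the DBIRD complex, and the comparisons ask which transcripts differ when either is targeted. CCAR2 fell in siDBC1, with 6.50, 6.54 and 6.65 on the 3 arrays against 7.67, 7.67 and 7.84 in siCTR on the log2 scale (difference −1.16, adjusted p = 0.0116). ZNF326 was not lower where it was targeted, with 6.12, 5.56 and 5.81 in the arrays labelled siZNF326 against 5.25, 5.64 and 5.76 in siCTR (difference 0.28, adjusted p = 0.851). That group is therefore called by its label throughout, and the depletion the label names was not seen in the transcript. In siDBC1 the values of ZNF326 were spread, with 6.24, 5.64 and 7.32 (difference from siCTR 0.85, adjusted p = 0.844). CCAR2 read 8.01, 7.95 and 7.99 in the arrays labelled siZNF326 (difference from siCTR 0.26, adjusted p = 0.377). Array medians ran from 5.58 to 5.90, with siDBC1 replicate 2 at the low end and siZNF326 replicate 1 at the high end. Over the 5 markers of the line (NEFM, NEFL, INA, VIM and CDH2) means were 8.21 to 8.74 in the arrays labelled siZNF326, 7.41 to 8.16 in siDBC1 and 7.56 to 7.86 in siCTR. Epithelial markers (CDH1 and EPCAM) averaged 5.45 to 5.72 in the arrays labelled siZNF326, 5.59 to 6.41 in siDBC1 and 5.28 to 5.62 in siCTR. Of the 4 haematopoietic markers 3 were measured (PTPRC, CD3E and HBB), and their mean lay between 2.85 and 3.05 on all 9 arrays, below the lower quartile of all probe sets, 4.11. Markers of fibroblasts (COL1A1, COL3A1 and DCN) averaged 4.73 to 4.88 and those of hepatocytes (ALB and APOA1) 4.09 to 4.36 on all arrays. The part of the shifts in array medians and markers in the enzymes' values was not tested. Each p-value of the linear model (limma) sets a difference against the spread between arrays within groups, pooled over the 3 groups and moderated over all probe sets.

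Serine is made in the cytosol in steps: PHGDH oxidizes 3-phosphoglycerate, PSAT1 transfers an amino group from glutamate, and PSPH removes the phosphate. Serine hydroxymethyltransferases then split serine into glycine and a carbon unit carried by tetrahydrofolate, SHMT2 in mitochondria and SHMT1 in the cytosol. In mitochondria MTHFD2 and MTHFD1L carry the unit on to formate, and ALDH1L2 oxidizes it to carbon dioxide with the gain of NADPH. In the cytosol the trifunctional MTHFD1 takes up formate and serves the synthesis of purines and thymidylate. PHGDH, PSAT1, SHMT2 and MTHFD2 are known as targets of ATF4, the transcription factor of amino acid starvation.

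Promoter sequences show what the enzymes that were lower and those that were not have in common upstream of their starts. RefSeq promoters on GRCh38.p14 were given for PHGDH, PSAT1, MTHFD2, SHMT1, MTHFD1 and MTHFD1L. The 250 bases before the start of the 5 measured ones are printed 5′ to 3′ on the strand of the gene, with the letters CCAAT, or ATTGG on the other strand, in capitals.
PHGDH (chr1:119711684-119711933, plus strand): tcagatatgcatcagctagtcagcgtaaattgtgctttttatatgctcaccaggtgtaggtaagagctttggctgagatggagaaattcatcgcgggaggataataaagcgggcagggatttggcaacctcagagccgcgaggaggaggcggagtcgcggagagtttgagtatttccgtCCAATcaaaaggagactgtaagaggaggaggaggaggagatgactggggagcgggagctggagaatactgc
PSAT1 (chr9:78296875-78297124, plus strand): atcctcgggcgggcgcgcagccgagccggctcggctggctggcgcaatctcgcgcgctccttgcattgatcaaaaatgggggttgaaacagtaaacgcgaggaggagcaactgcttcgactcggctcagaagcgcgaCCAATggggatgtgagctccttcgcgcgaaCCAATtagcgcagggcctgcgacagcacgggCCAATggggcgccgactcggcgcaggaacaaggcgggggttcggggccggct
MTHFD2 (chr2:74198365-74198614, plus strand): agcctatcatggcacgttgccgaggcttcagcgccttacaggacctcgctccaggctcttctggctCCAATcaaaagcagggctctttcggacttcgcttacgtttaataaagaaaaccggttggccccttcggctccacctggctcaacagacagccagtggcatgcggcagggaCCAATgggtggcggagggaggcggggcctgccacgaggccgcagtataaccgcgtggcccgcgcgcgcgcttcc
SHMT1 (chr17:18363551-18363800, minus strand): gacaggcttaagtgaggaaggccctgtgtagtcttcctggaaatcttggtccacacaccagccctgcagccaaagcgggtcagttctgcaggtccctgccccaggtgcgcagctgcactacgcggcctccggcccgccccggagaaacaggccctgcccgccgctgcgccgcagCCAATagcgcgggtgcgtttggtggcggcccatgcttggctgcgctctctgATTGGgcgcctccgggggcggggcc
MTHFD1 (chr14:64388103-64388352, plus strand): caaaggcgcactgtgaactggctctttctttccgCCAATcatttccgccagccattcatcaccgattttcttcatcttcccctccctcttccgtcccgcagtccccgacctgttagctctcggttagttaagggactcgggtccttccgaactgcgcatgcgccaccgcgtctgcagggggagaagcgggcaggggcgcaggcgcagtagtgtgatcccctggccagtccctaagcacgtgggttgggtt
The letters TGATGNAA, the core of the C/EBP-ATF response element that ATF4 binds, were searched on both strands and were in none of these 5 windows. They were in 3.14% of all 35116 promoter windows of this length. Among the enzymes without values, MTHFD1L carried them in 2 of its 4 windows, and these 2 overlap. CCAAT, the letters of the CCAAT box, was searched on both strands after the data were seen, and no printed window holds it together with TGATGNAA. It was in all 5 windows, 3 times in PSAT1, 2 times in MTHFD2 and in SHMT1, and 1 time in PHGDH and in MTHFD1, and in 32.0% of all windows. Neither search set PHGDH, PSAT1 and MTHFD2 apart from SHMT1 and MTHFD1. Only exact letters within these windows were searched, so copies after the start or with a changed letter were not covered. ALDH1L2, PSPH and SHMT2 had no entry.

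The 5 enzymes of serine synthesis and the mitochondrial folate pathway had lower values in both siRNA groups than in siCTR, and the 2 cytosolic folate enzymes did not. In the arrays labelled siZNF326 the 5 differences from siCTR ran from −1.25 to −0.48 with a median of −0.88, against 0.032 over all probe sets. In siDBC1 they ran from −0.99 to −0.56 with a median of −0.69, against 0.014 over all probe sets. PHGDH in the arrays labelled siZNF326 passed the test over all probe sets, and no other enzyme did in either comparison. RNA came from whole cultures, so less RNA in every cell and loss of the transcript in some cells cannot be told apart.

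**Figure D1:**
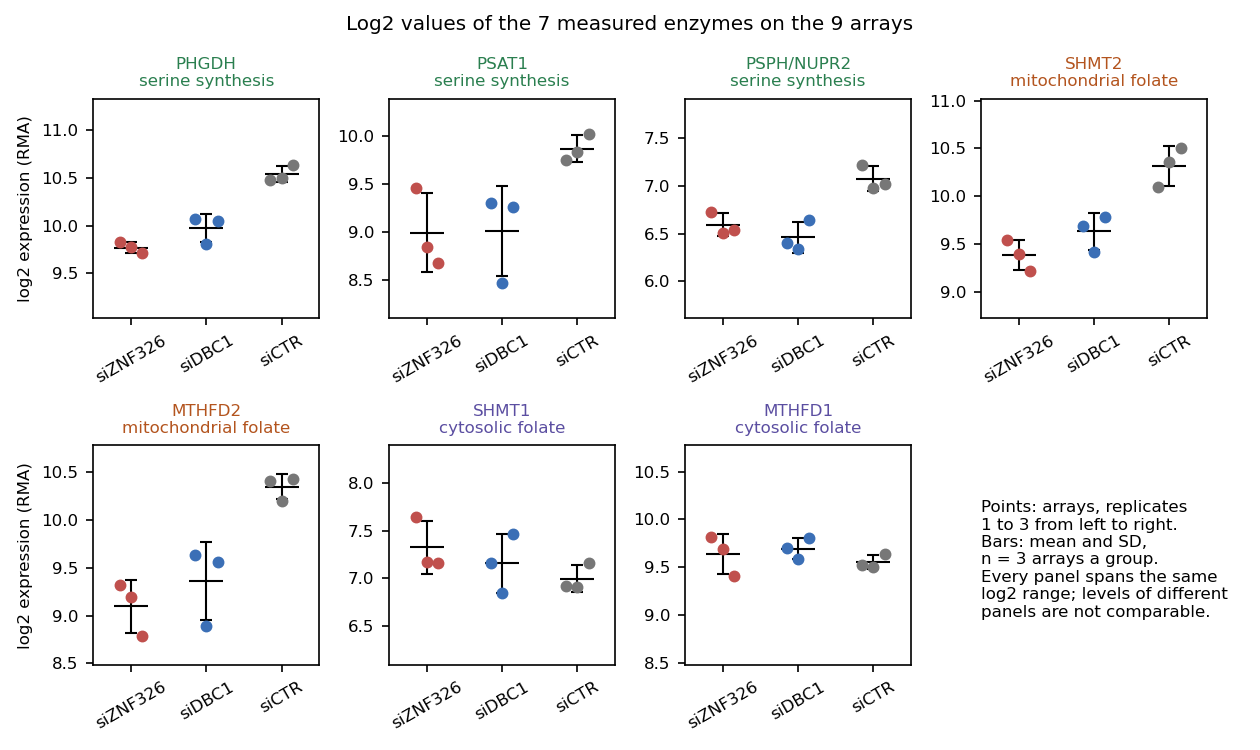
Log2 expression of the 7 measured enzymes (y axis) in the arrays labelled siZNF326, in siDBC1 and in siCTR (x axis), with a point for each array and a bar for the mean and SD of 3 arrays. In PHGDH, PSAT1, PSPH/NUPR2, SHMT2 and MTHFD2 all 6 siRNA arrays sit below all 3 siCTR arrays, and in SHMT1 and MTHFD1 the groups overlap or touch.

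PHGDH, which commits glycolytic carbon to serine, fell in the arrays labelled siZNF326. Its log2 values were 9.82, 9.77 and 9.71 in the arrays labelled siZNF326, 10.07, 9.80 and 10.05 in siDBC1, and 10.48, 10.50 and 10.64 in siCTR. All 6 siRNA arrays lay below the lowest siCTR array, and siZNF326 replicate 1 and siDBC1 replicate 2 overlapped. The fall was 0.77 on the log2 scale against siCTR (SE 0.095, adjusted p = 0.0376), or 1.71-fold. In siDBC1 the difference was −0.56 (SE 0.095, adjusted p = 0.206), or 1.48-fold, and did not pass. The call ended in 8 of 9 omissions of 1 array, with an adjusted p of up to 0.192 without siCTR replicate 2. It held without siDBC1 replicate 2 (adjusted p = 0.0203), and the difference stayed between −0.80 and −0.72 over all 9 omissions.

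PSAT1, the aminotransferase, had the widest spread of the 7 within both siRNA groups. It read 9.46, 8.84 and 8.67 in the arrays labelled siZNF326, 9.30, 8.46 and 9.26 in siDBC1, and 9.75, 9.84 and 10.03 in siCTR. Neither siRNA group overlapped siCTR, and the array labelled siZNF326 replicate 1 came nearest to it while siDBC1 replicate 2 lay farthest below. Differences from siCTR were −0.88 in the arrays labelled siZNF326 (SE 0.27, adjusted p = 0.390) and −0.87 in siDBC1 (SE 0.27, adjusted p = 0.644). Without siDBC1 replicate 2 the siDBC1 difference was −0.59. The probe set shared by PSPH, the phosphatase that releases serine, and NUPR2 read 6.73, 6.51 and 6.54 in the arrays labelled siZNF326, 6.41, 6.34 and 6.64 in siDBC1, and 7.22, 6.98 and 7.03 in siCTR. All 6 siRNA arrays were below all siCTR arrays, and it was the only one of the 5 with a lower mean in siDBC1 than in the arrays labelled siZNF326. Its differences from siCTR were −0.48 (SE 0.12, adjusted p = 0.252) in the arrays labelled siZNF326 and −0.62 (SE 0.12, adjusted p = 0.282) in siDBC1.

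Both measured mitochondrial enzymes were lower in value in both siRNA groups. Their mean difference from siCTR was −1.09 in the arrays labelled siZNF326 and −0.84 in siDBC1, where the 3 of serine synthesis averaged −0.71 and −0.68, and this contrast was not tested. SHMT2, which hands serine carbon to mitochondrial folate, read 9.54, 9.40 and 9.22 in the arrays labelled siZNF326, 9.69, 9.41 and 9.78 in siDBC1, and 10.09, 10.35 and 10.50 in siCTR. No siRNA array reached the lowest siCTR array. Against siCTR it differed by −0.93 in the arrays labelled siZNF326 (SE 0.15, adjusted p = 0.0798), or 1.91-fold, and by −0.69 in siDBC1 (SE 0.15, adjusted p = 0.343), or 1.61-fold. MTHFD2, the dehydrogenase and cyclohydrolase that follows, showed the largest difference of the 7 in both groups. It read 9.32, 9.19 and 8.79 in the arrays labelled siZNF326, 9.64, 8.89 and 9.56 in siDBC1, and 10.41, 10.20 and 10.43 in siCTR. The groups were separate, with siZNF326 replicate 3 and siDBC1 replicate 2 lowest. MTHFD2 differed from siCTR by −1.25 in the arrays labelled siZNF326 (SE 0.22, adjusted p = 0.108), or 2.38-fold, and by −0.99 in siDBC1 (SE 0.22, adjusted p = 0.384), or 1.98-fold. From the lowest difference upward it held place 16 of 22011 probe sets in the arrays labelled siZNF326 and place 63 in siDBC1. Without siDBC1 replicate 2, whose spread enters the same fit, MTHFD2 passed in the arrays labelled siZNF326 (adjusted p = 0.0376). A second probe set, shared by SLC4A5 and MTHFD2 and near the lower quartile of all probe sets, differed by −0.017 in the arrays labelled siZNF326 and 0.037 in siDBC1.

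Neither cytosolic folate enzyme was lower than siCTR by its mean in either siRNA group. SHMT1 read 7.64, 7.18 and 7.16 in the arrays labelled siZNF326, 7.16, 6.85 and 7.47 in siDBC1, and 6.92, 6.91 and 7.16 in siCTR. The deposited value 7.16 was identical on 1 array of each group. SHMT1 differed by 0.33 in the arrays labelled siZNF326 (95% interval −0.12 to 0.77, adjusted p = 0.669) and by 0.16 in siDBC1 (95% interval −0.28 to 0.60, adjusted p = 0.983). Single arrays moved both values: without siDBC1 replicate 3 the siDBC1 difference was 0.0046 and without siDBC1 replicate 2 it was 0.31, and without siCTR replicate 3 it was 0.24. Without the array labelled siZNF326 replicate 1 the other difference was 0.17, as it was with quantile normalization. MTHFD1, which joins formate to folate in the cytosol, read 9.81, 9.69 and 9.40 in the arrays labelled siZNF326, 9.70, 9.58 and 9.80 in siDBC1, and 9.52, 9.50 and 9.64 in siCTR. Those groups overlapped, and the array labelled siZNF326 replicate 3 was the lowest of all 9. MTHFD1 differed by 0.082 in the arrays labelled siZNF326 (95% interval −0.19 to 0.36, adjusted p = 0.856) and by 0.14 in siDBC1 (95% interval −0.14 to 0.42, adjusted p = 0.962). With arrays centred on their medians the first of these was −0.0092, so MTHFD1 has no settled direction there. The lower ends of these intervals lie above the differences of SHMT2 and MTHFD2.

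**Figure D2:**
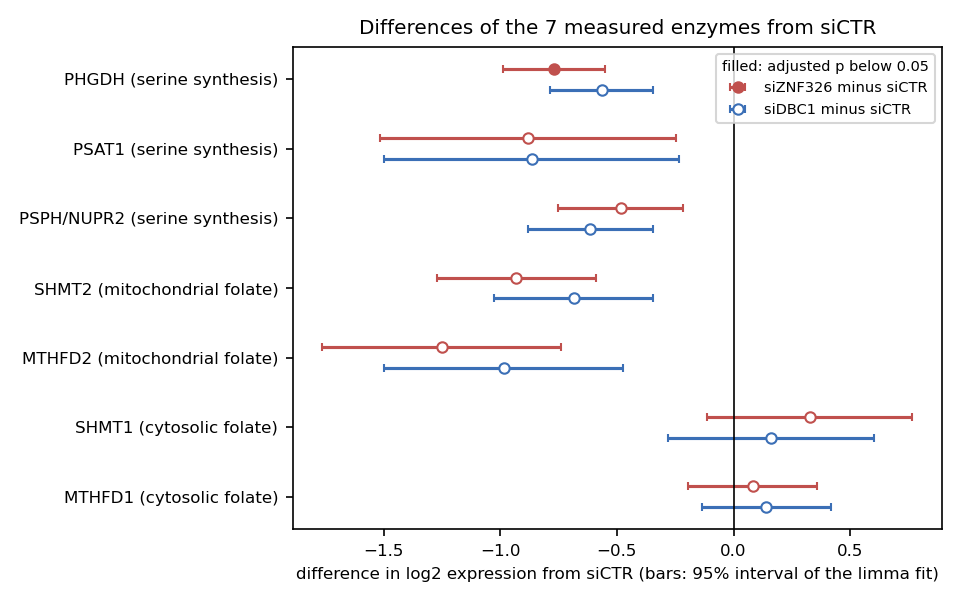
Difference in log2 expression from siCTR (x axis) for each of the 7 measured enzymes (y axis), with the arrays labelled siZNF326 above siDBC1 and bars for the 95% interval of the limma fit. The intervals of the 5 serine and mitochondrial enzymes lie below 0 in both groups, those of SHMT1 and MTHFD1 include 0, and PHGDH in the arrays labelled siZNF326 is the filled point that passed the test.

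Counted over all probe sets, calls were rare. In the arrays labelled siZNF326, 1 of the 7 enzymes passed an adjusted p below 0.05, where 0.150% of all probe sets passed and 0.0591% passed as lower. In siDBC1 0 of 7 passed, where 0.0363% passed and 0.0273% as lower. At an unadjusted p below 0.05 limma found 5 of 7 lower in each comparison, where 2.52% of all probe sets were lower at that threshold in the arrays labelled siZNF326 and 2.55% in siDBC1. The 3 arrays lay wholly below those of siCTR for the same 5 enzymes in each comparison, where 5.27% of all probe sets did so in the arrays labelled siZNF326 and 3.66% in siDBC1. Both siRNA groups lay wholly below siCTR for 1.58% of all probe sets. The 2 comparisons share the siCTR arrays, so they are not separate evidence.

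**Figure D3:**
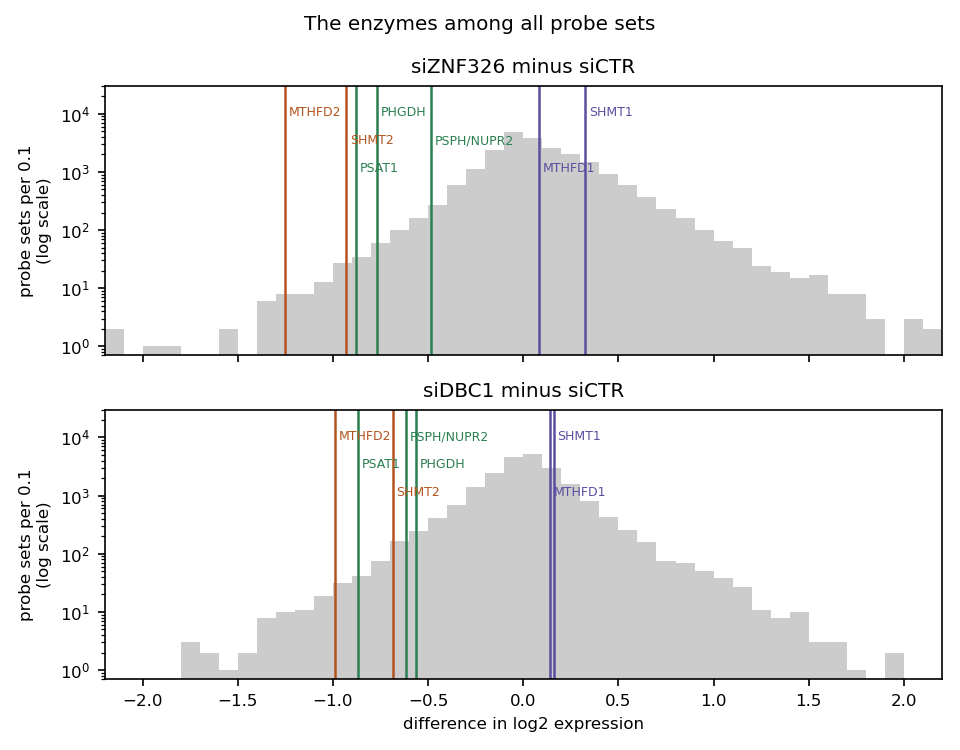
Number of probe sets (y axis, log scale) by difference in log2 expression (x axis, bins of 0.1) in the arrays labelled siZNF326 against siCTR and in siDBC1 against siCTR, with lines at the 7 measured enzymes. MTHFD2 stands at −1.25 and −0.99 in the lower tail, and SHMT1 and MTHFD1 stand among the bulk of probe sets between 0.082 and 0.33.

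The contrast between mitochondrial and cytosolic folate enzymes was taken array by array. Each enzyme was set to its mean in siCTR, and the mean of SHMT1 and MTHFD1 was subtracted from that of SHMT2 and MTHFD2. The result was −1.36, −1.20 and −1.34 in the arrays labelled siZNF326, −0.82, −1.12 and −1.02 in siDBC1, and −0.024, 0.013 and 0.011 in siCTR. Means were −1.30 ± 0.086, −0.99 ± 0.15 and 0 ± 0.021 (SD, n = 3 each). The 3 groups did not overlap, and the spread within siCTR was far below the distance to the others. That spread is narrower than the spread of its parts, which moved in opposite directions on siCTR replicates 1 and 2. In siCTR the SD was 0.13 for SHMT2 minus SHMT1 and 0.096 for MTHFD2 minus MTHFD1. This score over enzymes chosen with results known is a description without a test.

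Pairs of enzymes with like activities were compared singly by a two-sided exact permutation test, in which 3 arrays against 3 cannot give a p below 0.1. The log2 difference SHMT2 minus SHMT1, set to 0 in siCTR, was −1.42, −1.10 and −1.26 in the arrays labelled siZNF326, −0.78, −0.75 and −1.0 in siDBC1, and −0.14, 0.12 and 0.024 in siCTR. No group overlapped another. The ratio of SHMT2 to SHMT1 was 2.39-fold lower in the arrays labelled siZNF326 and 1.80-fold lower in siDBC1 than in siCTR, each with exact p = 0.1, or 0.12 adjusted over 6 tests. Between the arrays labelled siZNF326 and siDBC1 this pair differed by −0.41, again without overlap (exact p = 0.1, adjusted 0.12). MTHFD2 minus MTHFD1, a pair taken after the annotation was seen because MTHFD1L had no probe set, was −1.29, −1.30 and −1.41 in the arrays labelled siZNF326, −0.86, −1.49 and −1.04 in siDBC1, and 0.097, −0.095 and −0.0027 in siCTR. Differences from siCTR were −1.33 in the arrays labelled siZNF326 and −1.13 in siDBC1 (exact p = 0.1 and adjusted 0.12 for each). Between both siRNA groups this pair overlapped and differed by −0.21 (exact p = 0.4).

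**Figure D4:**
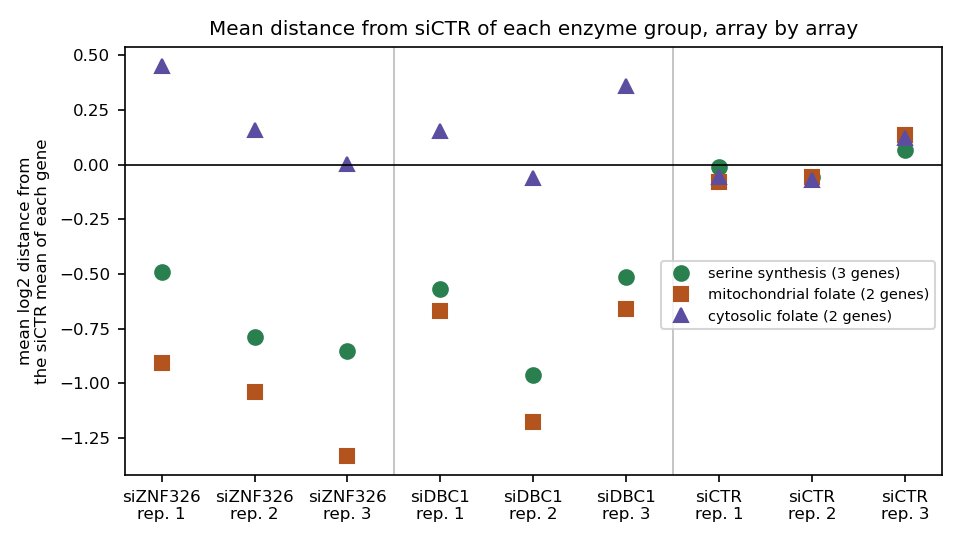
Mean log2 distance from the siCTR mean (y axis) of the serine synthesis, mitochondrial folate and cytosolic folate enzymes on each of the 9 arrays (x axis). Mitochondrial enzymes lie between −1.33 and −0.66 and serine enzymes between −0.96 and −0.49 on the 6 siRNA arrays, while the cytosolic enzymes lie between −0.062 and 0.45.

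The arrays also differed within a group, and several enzymes shared the order. In siDBC1, replicate 2 was the lowest array for all 7 enzymes, with mean distances from siCTR of −0.96 for serine synthesis, −1.18 for mitochondrial folate and −0.062 for cytosolic folate, and it had the lowest median of all arrays, 5.58. On siDBC1 replicates 1 and 3 the same distances were −0.57 and −0.51, −0.67 and −0.66, and 0.15 and 0.36. Without replicate 2 the median of the 5 serine and mitochondrial differences in siDBC1 was −0.58, with 5 of 5 below siCTR. Among the arrays labelled siZNF326, replicate 1 had the highest median, 5.90, and the smallest distances of the 3 in serine synthesis (−0.49) and mitochondrial folate (−0.91). Without it the median over the 5 enzymes there was −1.01. Lower quartiles of the 9 arrays ran from 4.09 to 4.16 and upper quartiles from 6.70 to 7.26, so arrays did not shift alike at all levels. The part of the array level in these values, and in the distance between mitochondrial and cytosolic enzymes, was not tested.

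Between the arrays labelled siZNF326 and siDBC1, none of the 7 enzymes passed, where 0.00909% of all probe sets did. Differences ran from −0.26 for MTHFD2 to 0.17 for SHMT1, and adjusted p from 0.699 to 0.991. For PHGDH the 95% interval of the difference was −0.43 to 0.015, for SHMT2 −0.59 to 0.094 and for MTHFD2 −0.78 to 0.25. For 0 of 7 enzymes were these groups without overlap, where 9.45% of all probe sets were. By mean level the order was siZNF326, siDBC1, siCTR from low to high for PHGDH, PSAT1, SHMT2 and MTHFD2, and siDBC1, siZNF326, siCTR for the probe set of PSPH and NUPR2. In each case the lower pair overlapped, and both stood apart from siCTR. The order of the siRNA groups is not settled for PSAT1. Its means there differed by −0.015 (SE 0.27), and the sign turned in 4 of 9 omissions of 1 array.

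Other genes of serine, folate and methionine metabolism were taken from 6 lists with 38 genes, of which 31 had a probe set of their own. In the arrays labelled siZNF326, 2 of 31 passed as lower and 0 as higher, where 0.0591% of all probe sets passed as lower. There 15 of 31 were below siCTR, against 43.2% of all probe sets, and the median was 0.0097. In siDBC1 0 of 31 passed in either direction, where 0.0363% of all probe sets did, and 19 were below siCTR, against 46.1% of all probe sets, with a median of −0.022. The 2 were CBS, which condenses serine with homocysteine, and SLC6A9, a glycine transporter. CBS read 8.32, 8.21 and 8.10 in the arrays labelled siZNF326, 8.36, 8.16 and 8.43 in siDBC1, and 9.13, 9.20 and 9.42 in siCTR, a fall of 1.04 in the arrays labelled siZNF326 (adjusted p = 0.0250) and a difference of −0.93 in siDBC1 (adjusted p = 0.0874). SLC6A9 read 6.51, 6.59 and 6.63 in the arrays labelled siZNF326, 6.89, 6.93 and 6.93 in siDBC1, and 7.45, 7.43 and 7.60 in siCTR. It fell by 0.92 in the arrays labelled siZNF326 (adjusted p = 0.0176) and differed by −0.58 in siDBC1 (adjusted p = 0.0947). Each of these 2 calls held in 2 of 9 omissions of 1 array, without siDBC1 replicate 2 or without siDBC1 replicate 3. Both calls ended in a fit of the arrays labelled siZNF326 and siCTR alone (adjusted p = 0.0700 for CBS and 0.0628 for SLC6A9). In siDBC1 CBS passed with quantile normalization (adjusted p = 0.0168), with arrays centred on their medians (0.0108) and with low probe sets left out (0.0494).

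The lists of folate uptake, folate storage and purine synthesis had medians near 0. The 9 measured genes of folate storage and interconversion had a median difference of 0.081 in the arrays labelled siZNF326 and 0.037 in siDBC1. Those of the 6 genes of purine synthesis were 0.020 in the arrays labelled siZNF326 and −0.056 in siDBC1, and those of the 3 of folate uptake and transport 0.0097 and 0.044. For glycine cleavage, with GLDC and DLD measured, the median was 0.36 in the arrays labelled siZNF326 and 0.092 in siDBC1. In the arrays labelled siZNF326, 6 of the 31 measured list genes lay wholly above siCTR and 5 wholly below. The 6 were SFXN1, TYMS, GLDC, DLD, PPAT and MAT2A, and the medians of their lists, glycine cleavage apart, were near 0. Of all probe sets 5.27% lay wholly below siCTR there, and 43.2% had a difference below 0. The share wholly above was not computed, so the count of 6 cannot be read as a result about these genes. In the arrays labelled siZNF326 the difference was 0.36 for SFXN1, the mitochondrial serine carrier, 0.44 for TYMS, thymidylate synthase, 0.38 for GLDC, the glycine decarboxylase, and 0.26 for MTR, methionine synthase. In siDBC1 it was −0.022 for SFXN1, 0.065 for TYMS, 0.19 for GLDC and −0.079 for MTR. ALDH1L1, the cytosolic counterpart of ALDH1L2, differed by −0.087 in the arrays labelled siZNF326 and −0.016 in siDBC1, and MTHFD2L, a mitochondrial relative of MTHFD2, by 0.081 and 0.012. Both read low: ALDH1L1 at 5.25 to 5.43, below the median of probe set means, 5.75, and MTHFD2L at 3.19 to 3.59, below their lower quartile, 4.11. Small differences at such levels do not show that a transcript was unchanged. None of SFXN1, TYMS, GLDC, MTR, ALDH1L1 and MTHFD2L passed, with a lowest adjusted p of 0.529 for GLDC in the arrays labelled siZNF326. MTHFD2L turned to −0.010 there with arrays centred on their medians. SLC25A32, the mitochondrial folate carrier, was annotated only in a shared probe set.

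The 5 importers of serine and glycine had a median of −0.66 in the arrays labelled siZNF326 and −0.58 in siDBC1, with 5 of 5 below siCTR in each. Of these, 3 lay wholly below siCTR in the arrays labelled siZNF326, where 5.27% of all probe sets did. In siDBC1 2 did, against 3.66% of all probe sets. SLC38A1 and SLC38A2 overlapped siCTR in both comparisons, and SLC1A5 did in siDBC1. In the 6 genes of the methionine cycle and transsulfuration the medians were −0.073 in the arrays labelled siZNF326 and −0.088 in siDBC1, and the low values were those of CBS and CTH. CTH, which releases cysteine, was chosen after its values were seen and differed by −1.29 in the arrays labelled siZNF326 (adjusted p = 0.236) and by −1.60 in siDBC1 (adjusted p = 0.277).

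**Figure D5:**
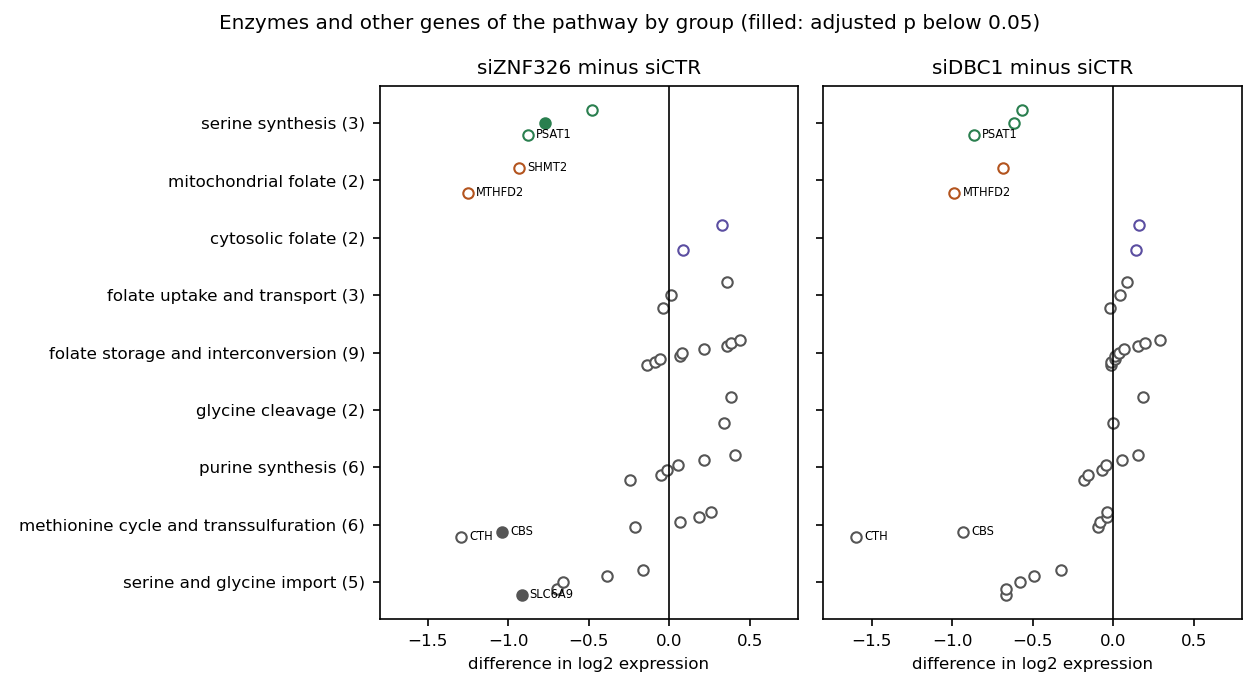
Difference in log2 expression from siCTR (x axis) of the 7 measured enzymes and the 31 other measured genes by group (y axis), for the arrays labelled siZNF326 and for siDBC1, with filled points at an adjusted p below 0.05. Serine synthesis, mitochondrial folate, serine and glycine import and the pair CBS and CTH lie left of 0, and the folate, glycine cleavage and purine groups lie around 0 or up to 0.44.

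The profiles most like those of 3 enzymes over the 9 arrays were found by the root mean square difference after each gene was set to its own mean. Closest to PHGDH were CDC42EP1 (0.080), TBL1X (0.087), AARS1 (0.089), TTC19 (0.10) and PPP1R15A (0.11), where the SD of PHGDH itself over the arrays was 0.36. Closest to SHMT2, with an SD of 0.45, were AARS1 (0.055), SLC3A2 (0.058), TBL1X (0.068), MARS1 (0.075) and PHGDH (0.11). Closest to MTHFD2, with an SD of 0.63, were STC2 (0.17), CEBPG (0.17), ASNS (0.18), CARS1 (0.19) and MARS1 (0.19). They were taken from 14431 probe sets of other genes, and such likeness describes these 9 arrays only.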

How the data were processed

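Total RNA of 9 HEK293 cultures was depleted of ribosomal RNA and hybridised to Affymetrix whole-transcript arrays, per the labels' protocols. The deposited values are log2 expression made by the authors with RMA, per the submitters' processing notes, which also name hg18. The RMA version and any filter are not given in the sources used here. No background values were used, so low levels are not marked. The number of arrays limits the precision. Gene names came from the platform annotation, in which 2408 probe sets carry several symbols and 5171 none.

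A linear model of the 3 groups was fitted to all 22011 probe sets without a filter, using limma 3.58.1 under R 4.3.3 with moderated variances. Two-sided p-values were adjusted over all probe sets (Benjamini and Hochberg) and counted as calls below 0.05. A fold is 2 to the power of the log2 difference. The fit was run on simulated arrays with known changes, whose values were drawn independently and without shifts between arrays. That run does not show how the fit handles the array shifts in these data. Each gene was read from the probe set with its symbol alone and the highest mean, except PSPH, which is read from a shared one, an exception added after the annotation was seen. The planned pair of MTHFD1L and MTHFD1 could not be formed. Named were all enzymes of the rule, both siRNA targets, genes of the pathway lists that were called in any comparison plus 9 further list members, and the 5 most alike profiles for each of 3 enzymes. The members and lists were chosen with earlier results of these data known. Alternatives were the normalization, centring, a filter, a replicate block, fits of the compared groups only, eBayes settings and omission of each array.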

Additional observations from a re-analysis of the deposited data

How the results depend on the processing

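Under every alternative and every omission of 1 array, all 5 enzymes of serine synthesis and mitochondrial folate stayed below siCTR in both siRNA groups by their main probe sets, while the calls moved. Scaling moved them most. After quantile normalization the arrays labelled siZNF326 gave 196 calls against siCTR (89 higher and 107 lower, where the deposited values gave 20 and 13), siDBC1 gave 69 (17 and 52, against 2 and 6), and the arrays labelled siZNF326 against siDBC1 gave 28. Centring arrays on their medians gave 119 (57 and 62), 46 (10 and 36) and 9 (4 and 5, against 1 and 1). Under quantile normalization PSPH with NUPR2 (−0.62, adjusted p = 0.0450), SHMT2 (−1.0, adjusted p = 0.00734) and MTHFD2 (−1.33, adjusted p = 0.00811) then passed in the arrays labelled siZNF326, and MTHFD2 passed in siDBC1 (−0.99, adjusted p = 0.0466). With centring SHMT2 (−1.02, adjusted p = 0.00798) and MTHFD2 (−1.34, adjusted p = 0.0183) passed in the arrays labelled siZNF326, MTHFD1 turned to −0.0092, and MTHFD2L turned to −0.010 against siCTR and −0.0081 against siDBC1. In siDBC1 MTHFD2L was −0.011 with quantile normalization and −0.0022 with centring. With the lower 50% of probe sets left out, 68 were called in the arrays labelled siZNF326, SHMT2 (−0.93, adjusted p = 0.0390) among them. Fits of the compared groups alone gave 5 calls for the arrays labelled siZNF326 against siCTR, 0 for siDBC1 and 0 between these, and PHGDH was −0.77 with adjusted p = 0.0700. With trended and robust variances siDBC1 gave 4. The other probe set of MTHFD2 gave 0.037 in siDBC1. The cause of these moves was not tested.

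Same-numbered arrays did not deviate together: 3 of 9 pairs correlated above 0.1 (range −0.296 to 0.396) and 4 of 9 arrays correlated best with their own number. With the replicate block the arrays labelled siZNF326 gave 1 call, siDBC1 0 and the comparison between them 0 (limma, with 2007, 1360 and 1769 at an unadjusted p below 0.05), and PHGDH was −0.77 with adjusted p = 0.145. The calls of CBS and SLC6A9 in the arrays labelled siZNF326 also ended there (adjusted p = 0.131 and 0.0979).

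Omission of 1 array gave 1 to 64 calls in the arrays labelled siZNF326, the highest without siDBC1 replicate 2, 0 to 4 in siDBC1, and 0 to 1 between them. Against siCTR in the arrays labelled siZNF326, PHGDH ranged from −0.80 to −0.72, MTHFD2 from −1.36 to −1.10, MTHFD1 from −0.0053 to 0.20 and SHMT1 from 0.17 to 0.41. In siDBC1 SHMT1 ranged from 0.0046 to 0.31, SFXN1 from −0.18 to 0.21, TYMS from −0.12 to 0.29, ALDH1L1 from −0.046 to 0.0038, MTHFD2L from −0.079 to 0.12 and MTR from −0.34 to 0.19. Between the siRNA groups PSAT1 ranged from −0.29 to 0.14, MTHFD1 from −0.15 to 0.058 and MTHFD2L from −0.040 to 0.16. The distance of mitochondrial from cytosolic enzymes kept its sign, from −1.35 to −1.27 in the arrays labelled siZNF326 and −1.07 to −0.92 in siDBC1. With 2 enzymes on each side its median equals its mean, so that alternative was not run. With 3 arrays a group, the enzymes between the 2 siRNA groups could differ by up to the intervals given.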
